A study of Mus musculus with 34 samples.

Results

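The genes described here are the developmental transcription factors of the Pax, Sox, Lhx, Tbx, Irx, Dlx, Nkx and Fox families and of the sine oculis homeobox family, which includes Six5. Selection by gene name among 21938 protein-coding genes in the GENCODE M21 annotation of mm10 gave 121 genes. Of these, 44 were Fox, 18 Sox, 13 Tbx, 13 Nkx, 8 Lhx, 7 Pax, 6 Dlx, 6 Irx and 6 sine oculis homeobox genes. The rule left out Sox9, Pax4, Pax6, Nkx2-2 and Six6os1. The mark measured at their promoters was H3K4me3, trimethylation of lysine 4 of histone H3, by CUT&RUN, in which an antibody brings a nuclease to the marked nucleosomes and the released DNA is sequenced. The libraries came from villus cells scraped from the small intestine of wild-type C57BL/6J mice (WT1 and WT2, for replicates 1 and 2) and of Apc Min/+ mice with the same strain background (APC1 and APC2). Apc Min/+ mice carry a mutant copy of the tumour suppressor gene Apc in every cell and later develop intestinal tumours, but the tissue used here looked normal. The sample labels give an age of 5 weeks and the methods of the study 6 weeks. No sorting of cells is described, so a scraped sample may hold cells other than epithelium, and the labels do not tie a library to a mouse, so p-values measure the spread between these libraries.

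H3K4me3 is written by the SET1 and MLL methyltransferase complexes and marks the start of genes that are transcribed or ready to be. Most of the genes described here act in the embryo, where Pax, Sox, T-box, forkhead and homeobox factors set the identity of organs and cell types, and later most of them are silent in most tissues. Many have a promoter rich in CpG dinucleotides, a sequence that elsewhere in the genome usually carries H3K4me3, and in silent cells such promoters are commonly held by Polycomb complexes. A smaller number keep working in the adult, among them the FoxA factors, which open chromatin in cells of the gut, liver and lung, and the FoxO factors, which respond to insulin and stress.

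The sequences of 4 promoters are shown because each pair sets a marked gene beside an unmarked gene of the same family. They are RefSeq promoters on GRCm38.p6, from 250 bases before to 50 bases after the RefSeq start, read 5′ to 3′ on the strand of the gene, with each CpG dinucleotide in capitals. Sox4 lies at chr13:28953650-28953949 and Sox11 at chr12:27342669-27342968, both on the minus strand. Foxo3 lies at chr10:42276646-42276945 and Foxe3 at chr4:114926018-114926317, also on the minus strand.
Sox4: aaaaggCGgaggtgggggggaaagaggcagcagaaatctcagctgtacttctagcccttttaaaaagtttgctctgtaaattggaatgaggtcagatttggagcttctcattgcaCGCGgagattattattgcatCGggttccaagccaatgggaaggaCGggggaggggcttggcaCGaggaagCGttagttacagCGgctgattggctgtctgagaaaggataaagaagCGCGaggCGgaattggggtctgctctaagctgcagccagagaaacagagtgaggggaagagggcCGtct
Sox11: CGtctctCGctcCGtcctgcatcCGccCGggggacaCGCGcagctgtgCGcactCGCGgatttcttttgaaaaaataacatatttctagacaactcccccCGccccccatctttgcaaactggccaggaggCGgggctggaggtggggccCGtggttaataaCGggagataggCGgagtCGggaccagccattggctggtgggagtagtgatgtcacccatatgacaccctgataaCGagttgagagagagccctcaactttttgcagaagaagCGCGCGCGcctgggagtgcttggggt
Foxo3: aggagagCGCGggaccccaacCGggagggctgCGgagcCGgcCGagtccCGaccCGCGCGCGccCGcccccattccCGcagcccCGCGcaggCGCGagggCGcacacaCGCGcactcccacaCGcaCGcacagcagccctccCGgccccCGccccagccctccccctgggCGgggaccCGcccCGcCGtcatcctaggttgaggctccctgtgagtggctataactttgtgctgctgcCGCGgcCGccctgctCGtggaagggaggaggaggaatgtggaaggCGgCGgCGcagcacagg
Foxe3: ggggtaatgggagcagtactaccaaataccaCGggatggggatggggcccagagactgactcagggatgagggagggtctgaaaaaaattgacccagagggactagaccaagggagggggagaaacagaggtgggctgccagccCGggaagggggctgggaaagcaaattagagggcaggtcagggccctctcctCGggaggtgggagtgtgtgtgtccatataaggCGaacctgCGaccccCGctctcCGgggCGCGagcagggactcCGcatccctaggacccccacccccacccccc

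The Sox pair went against the number of CpG dinucleotides in these windows, since Sox4 with 12 had a mean H3K4me3 signal of 5.58 and Sox11 with 21 had 0.454. In the Fox pair, Foxo3 with 35 had a mean signal of 10.6 and Foxe3 with 10 had 0.432. Within 500 bp on each side of the 5′ end, Foxe3 had 80 CpG dinucleotides and Foxo3 99. The count of 10 at Foxe3 thus holds for the window shown only. Sox4 is an HMG-box factor active in intestinal progenitors and tuft cells, Sox11 a factor of developing neurons, Foxo3 a stress-responsive forkhead factor and Foxe3 a factor of the eye lens.

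A RefSeq promoter was found by symbol for 83 of the 121 genes, and for 68 of them its start lay within 500 bp of the GENCODE 5′ end. These 68 promoters were searched on both strands for 6 sets of letters, beside the 13822 promoters of all genes that met the same condition. The Sp1 box GGGCGG was present in 72.1% of them and in 51.6% of all promoters. The CCAAT box, searched as CCAAT, was present in 48.5% against 39.1%. The TATA box, searched as TATAAA, was present in 4.41% against 11.3%. The forkhead core TGTTTAC was found in 1.47% against 2.80%, the Sox core ACAATGG in 2.94% against 2.63%, and the TCF/LEF core CTTTGAT in 0% against 3%. The shared feature of these promoters was thus their content of G, C and CpG, with a median of 21.5 CpG dinucleotides in 300 bases against 16 over all promoters, and not a TATA box. The letters of GGGCGG can be part of a CpG-rich stretch, so this motif and the CpG count are not separate measures.

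The libraries differed in depth and in how strongly promoters stood out. The number of tags was 1430000 in WT1, 4790000 in WT2, 3700000 in APC1 and 5470000 in APC2. Signal is the number of fragments covering a base after scaling to a fixed total, and the value of a gene is its mean within 1000 bp on each side of its 5′ end. A single fragment in this window adds 0.349, 0.104, 0.135 and 0.0914 to the value in these libraries in that order, so WT1 was the coarsest. APC1 stood apart, with a mean of 6.85 over all 21938 promoters against 2.59 in WT1, 1.76 in WT2 and 2.35 in APC2, and with the lowest background between genes, at 0.200 against 0.283, 0.324 and 0.302. Markers of enterocytes reached a mean signal of 2 at 11 of 13 promoters, whereas this held for 0 of 6 secretory, 0 of 8 mesenchymal, 0 of 8 immune, 0 of 6 endothelial and 0 of 6 neural and glial markers.

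Most of the developmental factors carried little H3K4me3 in villus cells. Averaged across the 4 libraries, a signal of 2 or more was reached by 24 of the 121 genes (19.8%), against 9930 of all 21938 protein-coding genes (45.3%), and 13 of 15 transcription factors of intestinal identity such as Cdx2 and Hnf4a. The median over the 121 genes was 1.05 in WT1, 0.731 in WT2, 0.496 in APC1 and 1.00 in APC2. The medians over all genes were 1.39, 0.974, 1.62 and 1.39, so the developmental factors lay below the middle of the genome in each of the 4 libraries. In the scraped tissue, fewer cells with the mark and less of the mark per cell cannot be told apart. Of the 24 genes, 6 had a wild-type mean under 2 and came over this level through the Apc Min/+ libraries. These were Foxa1, Foxd2, Irx3, Six5, Sox12 and Tbx6, and the choice of the 24 is therefore not independent of the genotypes.

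The marked genes were mainly forkhead genes. Among the Fox genes, 16 of 44 reached a mean signal of 2 (36.4%), and among the other 8 families 8 of 77 (10.4%). These 8 were Sox4, Sox13, Sox12, Tbx3, Tbx1, Tbx6, Six5 and Irx3. No Pax, Lhx, Dlx or Nkx gene reached it, out of 7, 8, 6 and 13. With the families set side by side in the plot of the members by library, the upper tail of the Fox family separates from a lower body that all 9 families share.

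**Figure D1:**
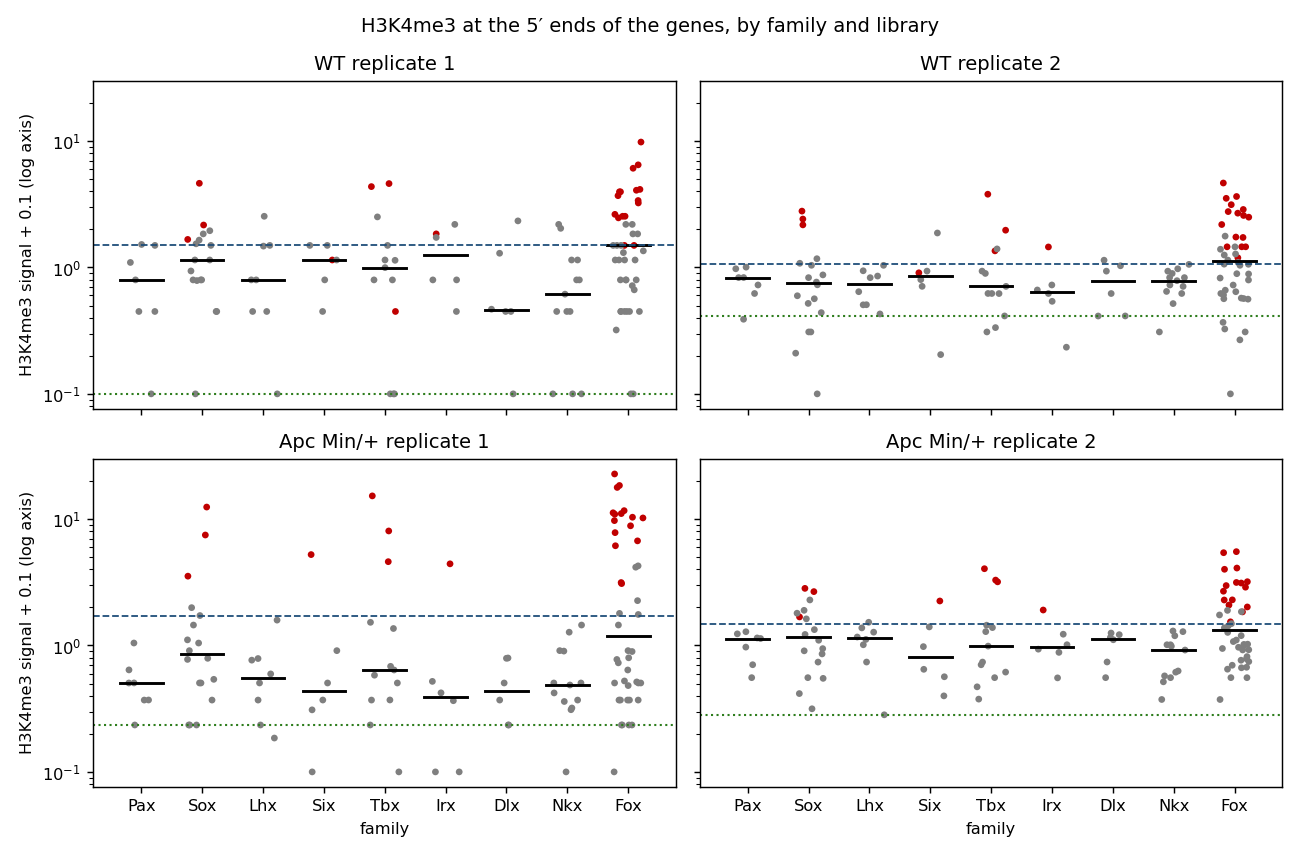
H3K4me3 signal within 1000 bp of the 5′ end of each of the 121 genes, by family, in each of the 4 libraries (log axis, 0.1 added so that values of 0 can be drawn). Red points are the 24 genes averaging 2 or more, grey points the other 97, short black lines the family medians, the dashed line the median of all 21938 genes and the dotted line the median of 1135 olfactory receptor genes. The red points are mostly Fox genes, and the Pax, Lhx, Dlx and Nkx columns hold none.

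Within the Fox family, some classes held genes with H3K4me3 and others held none. All 4 FoxO genes (Foxo1, Foxo3, Foxo4 and Foxo6) and both FoxK genes, which repress autophagy and other nutrient-controlled genes, reached a mean signal of 2. So did 3 of 4 FoxP genes, 2 of 3 FoxA genes and the only FoxM gene, Foxm1, which drives genes of mitosis. A further 1 of 3 FoxJ, 1 of 4 FoxN, 1 of 4 FoxD and 1 of 2 FoxC genes did so. The FoxB, FoxE, FoxF, FoxG, FoxH, FoxI, FoxL, FoxQ, FoxR and FoxS classes held 0 marked genes of 17, and the highest of these, Foxi3, a factor of ectodermal appendages, had a mean signal of 1.43.

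Foxo3, with its 5′ end at position 42276755 of chromosome 10, had the highest signal of the 121 genes. Its values were 9.72 in WT1, 4.56 in WT2, 22.6 in APC1 and 5.32 in APC2, from 28, 44, 168 and 58 fragments. APC1 was the highest library and APC2 lay between the wild-type libraries, so the groups overlapped. Foxp1, a forkhead repressor expressed in many tissues, came next with 6.38 and 3.42 in wild type and 18.3 and 5.42 in Apc Min/+. Foxj2 had 4.04 and 3.54 in wild type and 17.7 and 4.0 in Apc Min/+. At both genes, APC2 again lay within the range of the wild-type libraries. The ranges of Foxo3, Foxp1 and Foxj2 over the 4 libraries overlapped widely, so their order is that of the means.

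The next Fox genes had lower values of the same shape. Foxo1 had 5.99 and 3.04 in wild type and 10.1 and 2.59 in Apc Min/+, with APC2 the lowest library. Foxk1 had 3.87 and 2.48 in wild type and 11.1 and 3.02 in Apc Min/+. Foxa3, a FoxA factor of gut and liver, had 3.98 and 1.09 in wild type and 11.6 and 3.05 in Apc Min/+. APC2 lay within the wild-type range at both Foxk1 and Foxa3. The 5′ end of Foxa3 shares its window with the start of the broadly expressed gene Sympk, and that of Foxm1 with Rhno1, so the signal there cannot be assigned to either gene of a pair. In all, another annotated gene start lay in the window of 27 of the 121 genes and 6 of the 24.

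Foxa1, the other marked FoxA gene, differed more widely between the Apc Min/+ libraries than between the wild-type ones. Its values were 1.39 and 1.36 in wild type and 11.0 and 1.92 in Apc Min/+, from 4, 13, 81 and 21 fragments. APC1 and APC2 both lay above WT1 and WT2, APC2 by a small margin. Foxp3, the factor of regulatory T cells, had 2.37 and 1.64 in wild type and 3.05 and 1.99 in Apc Min/+, but its window also holds the starts of Ppp1r3f and Flicr. The 8 immune marker genes had medians of only 0.623, 0.627, 0.630 and 0.782 in the 4 libraries, and which of the 3 starts carries the Foxp3 signal was not tested. Foxc1, a factor of endothelium and mesenchyme, was the lowest of the 24 with 2.44 and 1.63 in wild type and 2.99 and 1.44 in Apc Min/+.

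**Figure D2:**
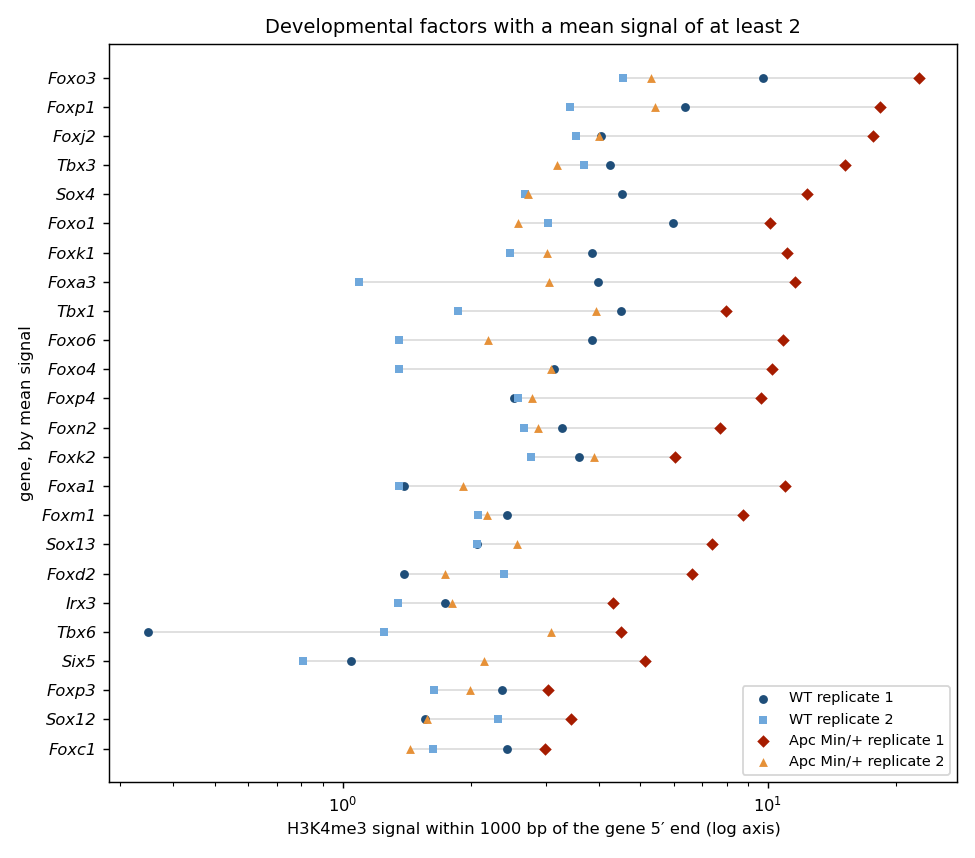
H3K4me3 signal within 1000 bp of the gene 5′ end (log axis) at the 24 genes averaging 2 or more, ordered by that mean, with a point for each of the 4 libraries and a grey line over their range. APC1 is the rightmost point in each row, and APC2 lies above both wild-type points at 7 of the 24 genes.

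Outside the Fox family, Tbx3, Sox4 and Tbx1 had the highest mean signals, at 6.58, 5.58 and 4.57, and their ranges over the libraries overlapped. Tbx3, a T-box repressor linked to Wnt signalling and self-renewal, had 4.26 and 3.70 in wild type and 15.2 and 3.19 in Apc Min/+. Sox4 had 4.53 and 2.69 in wild type and 12.3 and 2.73 in Apc Min/+. APC2 was the lowest library at Tbx3 and lay near WT2 at Sox4. Tbx1, known for its role in the pharyngeal arches, had 4.51 and 1.87 in wild type and 7.95 and 3.95 in Apc Min/+, and Sox13, a SoxD factor, had 2.07 and 2.07 in wild type and 7.38 and 2.57 in Apc Min/+. At Sox13 the libraries of the genotypes did not overlap, and at Tbx1 they did.

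Irx3, Six5, Tbx6 and Sox12 were close to the level of 2. Irx3, an Iroquois homeobox factor, had 1.74 and 1.35 in wild type and 4.33 and 1.81 in Apc Min/+. Six5, a homeobox factor next to the myotonic dystrophy kinase gene, had 1.05 and 0.807 in wild type and 5.14 and 2.15 in Apc Min/+. Tbx6, a factor of presomitic mesoderm, had 0.349 and 1.25 in wild type and 4.50 and 3.09 in Apc Min/+. The Apc Min/+ values exceeded both wild-type values at the first 3 of these genes, although those of WT1 rest on 5, 3 and 1 fragments. Sox12, a SoxC factor expressed in many tissues, had 1.57 and 2.32 in wild type and 3.43 and 1.58 in Apc Min/+, and its groups overlapped.

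The most marked members of the remaining families were at the level of the unmarked genes. Among the Pax genes, Pax3, a factor of neural crest and muscle precursors, had 1.42 and 0.627 in wild type and 0.405 and 1.05 in Apc Min/+, and Pax9, a factor of the pharynx and teeth, had 1.39, 0.522, 0.270 and 1.04 in the same order. Among the Lhx genes, Lhx3 had a mean signal of 1.25 and Lhx4 of 1.19, both factors of the pituitary and motor neurons. Dlx2 and Dlx1, which pattern the forebrain and jaw, had means of 1.12 and 0.758. Nkx6-1, needed for pancreatic beta cells, had 1.05 and 0.835 in wild type and 1.35 and 0.913 in Apc Min/+, and Nkx2-9 had a mean of 0.998. Irx4, a factor of the heart ventricle, had a mean of 0.882. None of these 9 genes reached in any library the value that Foxo3 had in its lowest library.

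Grouped by where the factors are known to act, the mark was most frequent in the lists of broadly expressed and gut-epithelium factors. The lists were chosen with earlier results of these data known, so these shares are a description and not an independent test. Of 14 broadly expressed factors, 12 reached a mean signal of 2, and of 6 factors known from gut epithelium 4 did, namely Tbx3, Sox4, Foxa3 and Foxa1. Among these counted genes, Foxa1 and Sox12 had a wild-type mean under 2. Foxa3 and Foxm1 share their windows with the starts of Sympk and Rhno1. The factors of the nervous system and ectoderm held 0 of 20, those of gut mesenchyme 0 of 4, those of neural crest and enteric glia 0 of 4 and those of germ cells and sperm 0 of 5. Among factors of heart, muscle, limb and skeleton 1 of 13 reached it (Tbx6), among those of other gut-tube organs and the pharynx 1 of 10 (Tbx1), of endothelium 1 of 5 (Foxc1) and of lymphocytes 1 of 3 (Foxp3). Foxf1, Foxf2 and Foxl1, which are typical of the mesenchyme under the epithelium, had means of 1.08, 0.633 and 0.720. Of the 37 genes in none of these lists 4 reached it, which were Foxo6, Foxd2, Irx3 and Six5.

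Of the exceptions among the broad and epithelial factors, Foxn3, Foxj3 and Foxa2 had more H3K4me3 at another annotated start. Foxn3 had only 1.39, 0.997, 4.06 and 0.924 at its 5′ end, but 5.23 and 3.60 in wild type and 15.3 and 3.81 in Apc Min/+ at a start 170510 bp downstream. Foxj3 had a mean of 1.94 at its 5′ end and of 7.02 at a start 2775 bp downstream, which lies near the start of Frg2f1. Foxa2, a pioneer factor of endoderm, had a mean of 1.24 at its 5′ end and 3.56 at a start 1505 bp downstream, where the libraries had 2.79, 1.20, 8.11 and 2.13. Foxq1, the remaining epithelial factor, stayed at 0.621.

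The same held for genes that were unmarked by the 5′ end alone. Sox6, a SoxD factor of muscle and cartilage, had a mean of 0.989 at its 5′ end and 2.86 at a start 178944 bp downstream, where wild type had 1.39 and 1.46 and Apc Min/+ 7.67 and 0.905. Pax8, a factor of thyroid and kidney, had 0.687 at its 5′ end and 2.17 at a start 52517 bp downstream, where wild type had 0.697 and 1.30 and Apc Min/+ 5.04 and 1.66. At Sox6 and Pax8 the level of 2 was thus passed only through APC1. With the highest annotated start of each gene, 29 of the 121 genes had a mean of at least 2, so 5 genes were added and the Pax family had 1 of 7. Over all 21938 genes the number rose from 9930 to 10796. The highest of several starts is higher by construction, and a gene with many starts has more chances. Tbx3 (11.2 at a start 4776 bp downstream, against 6.58) and Foxa1 (6.23 at 795 bp, against 3.91) were also highest inside the gene.

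The marked genes had H3K4me3 domains that on average were wide and reached into the gene. The widest enriched region over a 5′ end was 7000 bp at Tbx3, followed by 6500 bp at Foxa1 and 5800 bp at Foxo6. Between 1000 and 3000 bp downstream of the 5′ end, the average of the 24 genes was 2.14 and 1.59 in wild type and 6.97 and 2.23 in Apc Min/+. On the upstream side at the same distance it was 0.951 and 0.708 in wild type and 1.48 and 1.01 in Apc Min/+. Over the 9930 genes with a mean of at least 2, the downstream averages were 1.36, 1.06, 4.21 and 1.43, although within 1000 bp these genes had more signal than the 24, with 5.00, 3.27, 14.5 and 4.42 against 3.35, 2.25, 9.52 and 2.86. The median width of the region was 2800 bp for the 24 genes and 2000 bp for the 9930. It was 5200 bp for the 15 transcription factors of intestinal identity and 5500 bp for the 12 enterocyte markers with a region. By these averages and medians, the developmental factors with the mark were lower and broader than marked promoters in general, but narrower than these 2 sets of intestinal genes. Single genes varied, with regions of only 700 bp at Foxk2 and 900 bp at Irx3. At Tbx3, Foxp1 and Foxa1 the highest annotated start lay downstream of the 5′ end. The part of this in the lower and broader average was not tested. This is a description for which no test was made, and the regions were called on a mean in which APC1 had the highest signal.

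**Figure D3:**
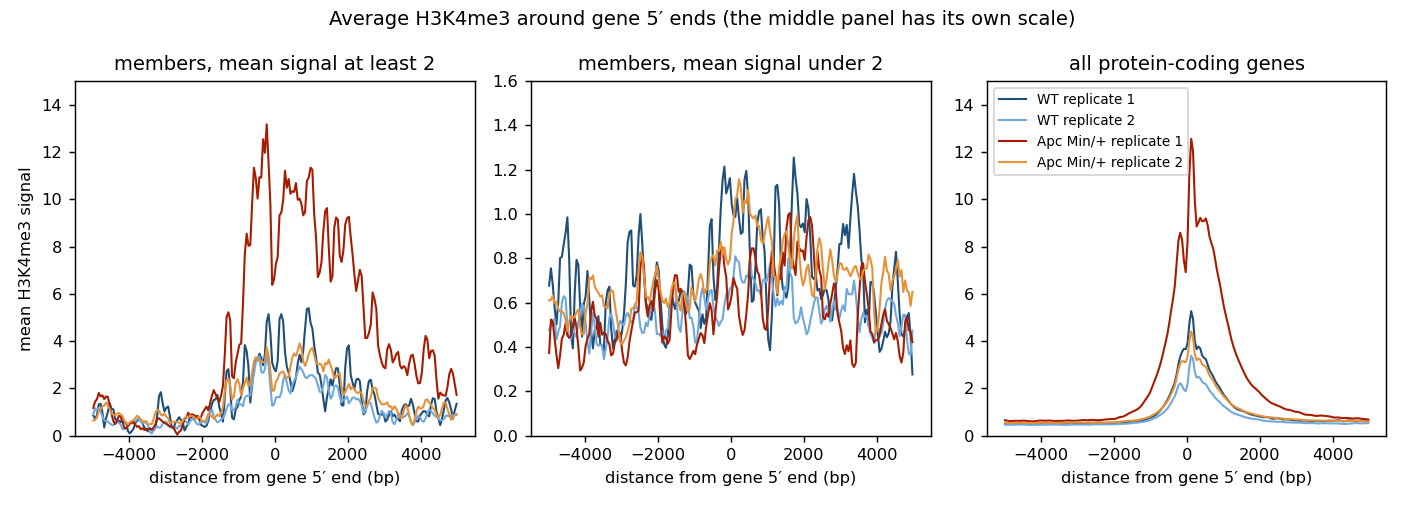
Average H3K4me3 signal in bins of 50 bp from 5000 bp upstream to 5000 bp downstream of the gene 5′ end, for the 24 genes averaging 2 or more, the other 97 genes (own scale) and all 21938 genes, with a line for each library. The 24 genes show a plateau that falls off downstream beyond 1000 bp, whereas the average of all genes is narrow, and the 97 genes show a low rise that is close to the noise between bins.

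Marked and unmarked developmental genes could lie next to each other. Of 19 pairs of neighbouring members within 500 kb, 15 held no marked gene, 3 held a marked and an unmarked gene, and in 1 pair, Foxa3 and Six5 at 71.1 kb on chromosome 7, both were marked, with means of 4.92 and 2.28. Tbx3 had a mean signal of 6.58, whereas Tbx5, a heart and forelimb factor 162 kb away on chromosome 5, had 0.212, with 0, 0.209, 0.270 and 0.371 in the 4 libraries. Foxd2 had 3.04 and Foxe3, 17.1 kb away on chromosome 4, had 0.432. Foxc1 had 2.12 and Foxf2, 181 kb away on chromosome 13, had 0.633. Foxd2 shares its window with the start of Foxd2os. The clusters of Foxf1, Foxc2 and Foxl1 on chromosome 8 and of Nkx2-1, Nkx2-9 and Pax9 on chromosome 12 held no gene above a mean of 1.08.

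Low signal was found at promoters rich in CpG as well as at others, and 51 of the 97 unmarked genes were CpG-rich. A GC content of at least 55% and a CpG observed/expected ratio of at least 0.65 within 500 bp of the 5′ end were found at 69 of the 121 genes (57.0%) and at 34.7% of all genes. Among all 7608 such genes 79.4% had a mean signal of at least 2, but among the 69 developmental factors 18 did (26.1%). Below these limits the shares were 11.5% of 52 and 27.2% of 14330. At an observed/expected ratio from 0.6 to 0.8, 7 of 54 developmental factors reached the level (13.0%) against 73.6% of all genes, and from 0.8 to 1 it was 12 of 33 (36.4%) against 83.7%. Foxk2 and Foxo1, the only members with a ratio over 1, both reached it. The Hox genes, which were not members, had 17 of 39 CpG-rich promoters and 0 of 39 with a mean of at least 2, and 38 other developmental regulators had 23 and 1, the latter being Sox9.

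**Figure D4:**
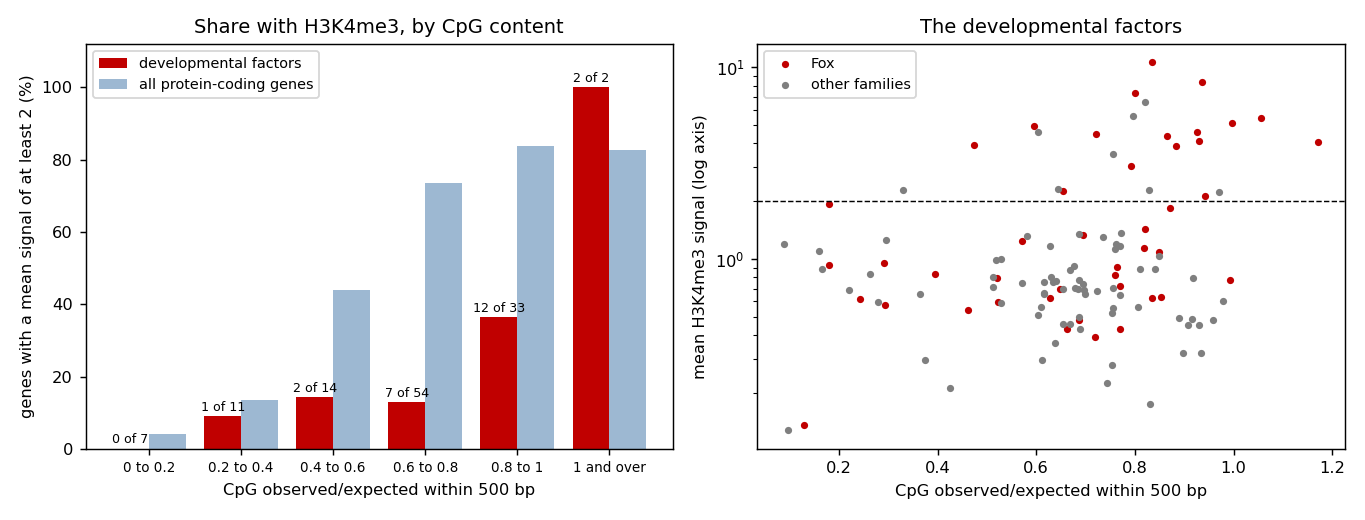
Left, share of genes averaging 2 or more in H3K4me3 signal by CpG observed/expected ratio within 500 bp of the 5′ end, for the 121 genes (red, with counts) and all protein-coding genes (blue). Right, mean signal (log axis) of each of the 121 genes against that ratio, with Fox genes in red and the level of 2 dashed. From 0.4 to 1 the red bars are far lower than the blue ones, and the marked genes above 0.7 are mostly Fox genes.

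The 97 unmarked genes were low, with medians above the background between genes but close to the level of their own surroundings. Their average within 1000 bp was 1.37, 1.26, 1.31 and 1.36 times that at 3000 to 5000 bp from the 5′ end, in WT1, WT2, APC1 and APC2. Their median was 0.697 and 0.626 in wild type and 0.405 and 0.871 in Apc Min/+, which was 2.47, 1.93, 2.03 and 2.89 times the background of each library. The 51 CpG-rich genes among the 97 had medians of 2.47, 1.88, 2.03 and 2.97 times background. All 1571 CpG-rich genes averaging under 2 had 2.98, 2.01, 3.46 and 3.33 times. The 1135 olfactory receptor genes, which are silent in gut and of which 0 are CpG-rich, had median signals of 0, 0.313, 0.135 and 0.183. The Hox genes had 0.697, 0.418, 0.406 and 0.779. The median of the 97 genes rests on 2, 6, 3 and 10 fragments in the 4 libraries, so the rank of single genes among them has little meaning. Spearman correlations between libraries over these 97 genes ran from 0.0404 to 0.470, against 0.436 to 0.711 over all 121, and are given as a description of points that share library depth.

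The 3 lowest genes were all on the X chromosome, which also holds the marked genes Foxo4 and Foxp3. Tbx22, a palate factor, had a mean signal of 0.128, Foxr2 of 0.136, and Sox3, a neural progenitor factor, of 0.175. This order rests on few fragments, with 0, 0, 2 and 3 at Foxr2 in the 4 libraries. Dlx5 on chromosome 6 was little higher, at 0.226. Of the 121 genes, 12 were listed at 0 in WT1, 2 in WT2, 6 in APC1 and 0 in APC2. A count of 0 allows up to 3 fragments, or a signal of 1.05, 0.313, 0.405 and 0.274, and this covers counting error only. In WT1, 72 of the 121 genes had at most 3 fragments, so in that library a signal of about 1 was not distinguishable from 0.

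The comparison of genotypes asks whether H3K4me3 at these promoters differs in Apc Min/+ villus cells before tumours form. Over the 121 genes the mean signal was 1.36 and 0.962 in wild type, and 2.37 and 1.27 in Apc Min/+. The group means were 1.16 ± 0.28 and 1.82 ± 0.78 (SD, n = 2), so the difference rests on APC1, and APC2 lay between the wild-type libraries. On the log2 scale the ratio of these means was 0.65, against 1.08 over all genes. Without APC1 it was 0.13, against 0.11.

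APC1 was the highest library at each of the 24 marked developmental genes, and at 9790 of all 9930 marked genes. The level of 2 is a mean that includes APC1, so this is partly fixed by the choice of genes. Of the 97 unmarked developmental genes, APC1 exceeded WT1 and WT2 at 22.7%, against 24.8% of all genes averaging under 2. It lay below both at 50.5%, against 33.7%. It was the highest library at 34 of the 121 genes and the lowest at 46, whereas over all genes it was highest at 11929 and lowest at 3611 of 21938. It exceeded WT1 and WT2 at 38.0% of the 121 genes and at 58.3% of all. APC2 exceeded them at 38.0% of the 121 genes and 36.7% of all. The same library had the lowest background and the highest signal at promoters in general, and the part of this in the values of the developmental genes was not tested.

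**Figure D5:**
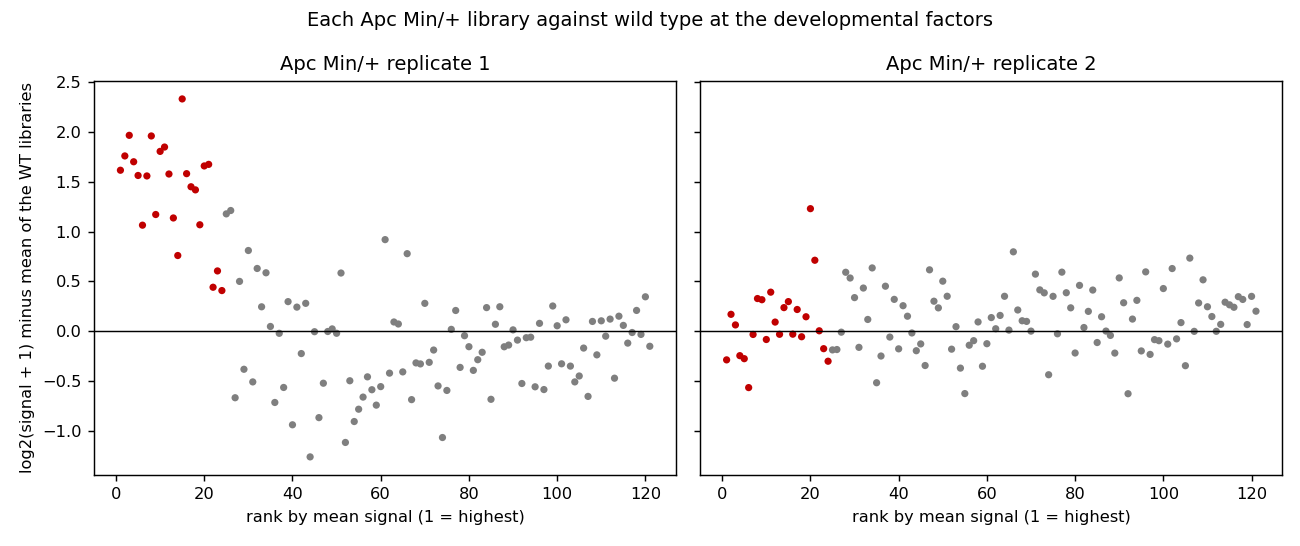
Difference of each Apc Min/+ library from the mean of the wild-type libraries, on the log2(signal + 1) scale, at each of the 121 genes ordered by mean signal, with the 24 genes averaging 2 or more in red. In APC1 the red points lie between 0.41 and 2.33 and 62 of the 97 grey points below 0, while in APC2 35 of the 97 lie below 0 and the red points scatter on both sides, with Tbx6 highest at 1.23.

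APC1 and APC2 together exceeded WT1 and WT2 at 22 of the 121 genes (18.2%), against 26% of all promoters, and lay below both at 12 (9.92%), against 7.17%. The first set included Foxa1, Foxa2, Foxp4, Foxk2, Sox13, Irx3, Six5 and Tbx6, and the second Six2, Six6, Nkx6-3, Foxi1 and Sox2, none of which reached a mean signal of 2. The median difference between Apc Min/+ and wild type over the 121 genes was 0.12 on the log2(signal + 1) scale, against 0.35 over all genes. By family it was 0.28 for Fox, 0.11 for Sox, 0.16 for Lhx, 0.06 for Tbx, 0.06 for Nkx, 0.08 for Dlx, 0.05 for Pax, -0.10 for Irx and -0.27 for the sine oculis homeobox genes. In none of these families was a median shift above that of all genes seen. The 121 genes hold a smaller share of marked promoters than all genes do. Among genes averaging 2 or more, the median difference was 0.75 for the 24 developmental factors and 0.85 for all 9930. Among genes averaging under 2, it was 0.03 for the 97 developmental factors and 0 for all. Apc Min/+ was higher without overlap at 15.5% and 15.6% of these unmarked genes.

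The test across all promoters called no developmental factor. Limma with a trend on log2(signal + 1) tested 9930 promoters, 24 of them of the developmental factors, and 0 of 24 passed an adjusted p of 0.05, with 0% called higher and 0% called lower over all promoters. At an unadjusted p under 0.05 there were 2 of 24, against 1.33% of all promoters, which were Tbx6 and Six5. The largest differences among genes whose groups did not overlap were those of Tbx6, Foxa1 and Six5. Each of these genes had a wild-type mean under 2 and entered the test through the Apc Min/+ libraries. Their differences are therefore not independent of the filter. Tbx6 differed by 1.44 with a standard error of 0.60 and an adjusted p of 0.683 by limma, Foxa1 by 1.31 with a standard error of 0.71 and Six5 by 1.19 with a standard error of 0.60, both also with an adjusted p of 0.683 by limma. At Foxa1 the Apc Min/+ libraries lay far apart, at 11.0 and 1.92, and at Tbx6 they were closer, at 4.50 and 3.09. APC1 and APC2 both lay above WT1 and WT2 at 7 of the 24 genes, against 38.5% of the tested promoters, and both lay below at 0 of 24, against 0.161%.

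The calls depended on a single library, and the size of the differences on the scaling. Without APC2, so that APC1 alone was set against wild type and was assumed to vary as the wild-type libraries do, limma called 18 of the 24 genes higher, against 65.2% of all promoters, and 0 lower, against 0.0403%. Without APC1 it called 0 of 24, and Tbx6 still differed by 1.23 and Six5 by 0.71, but Foxa1 by 0.30. With each library centred on its median tested promoter, limma called 0 of 24 genes, against 0.0504% of promoters higher and 0.0705% lower, and 16 of the 24 differences were negative (66.7%), against 51.2% over all tested promoters, where centring by construction puts the typical difference near 0. Tbx6 then differed by 0.59, Foxa1 by 0.46 and Six5 by 0.34. An unadjusted p under 0.05 was reached by 1 of the 24 genes, Foxo1, with a difference of -0.61, against 2.96% of all promoters. Relative to the typical marked promoter, a higher H3K4me3 level at these genes in Apc Min/+ mice was thus not detectable with 2 libraries a group.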

How the data were processed

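H3K4me3 CUT&RUN libraries of 2 wild-type and 2 Apc Min/+ samples were analysed, grouped by the labels. The other samples of the study were not analysed here. The deposited tracks hold signal, the coverage per base written by HOMER. According to the methods and the labels, the authors trimmed the read pairs, mapped them with Bowtie2 (mm10), discarded duplicates using Picard and fragments shorter than 150 or longer than 500 bp, and set each library to 10000000 tags. Neither a control nor replicates were combined. Because all libraries sum to the same total, a change shared by the whole genome cannot be seen, and a library with more of its tags at promoters is higher at marked promoters and lower elsewhere.

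Signal was averaged within 1000 bp of the 5′ end of each protein-coding gene of GENCODE M21. Signal was turned into fragments through the share of a track's total that each tag accounts for. Enriched regions were runs of 100-bp bins whose mean over all 4 libraries reached 5 times the genome mean, with gaps up to 500 bp bridged and runs under 300 bp dropped. Background was the mean outside them and over 5000 bp from any 5′ end. Promoters averaging 2 or more were tested with limma 3.58.1 in R 4.3.3, with a trend, on log2(signal + 1), with Benjamini-Hochberg adjustment over all tested promoters and a threshold of 0.05, after a check on simulated data. The differences are on this log2 scale, which understates changes of low genes. Other steps used Python 3.11.15, numpy 2.4.6 and pandas 2.3.3, and plots matplotlib 3.10.9.

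The members and the gene lists were chosen with earlier results of these data known. Genes were named by a rule that takes the 2 members with the highest mean signal of each family (6 for Fox), every member past the threshold, the 3 largest differences in each direction among tested members whose groups do not overlap, members of the role lists as examples, the 3 widest regions and the members with the largest gain at another annotated start. A gene that this rule names is not reported here. Other genes were named after their values were seen, such as Sox9, neighbours, Fox classes, the lowest genes and the rest of the 24. Promoter sequences follow the highest member of a family with a mean of at least 5 and a RefSeq entry, and the lowest CpG-rich member of that family among those with such an entry. Alternatives were the scaling (centring, quantile normalization, background), windows of 500 and 2000 bp, the annotated start with the highest signal, filters of 0 and 5, pseudocounts of 0.1 and 5, a replicate block, and leaving out each library. Depth was 1430000 to 5470000 tags, so values of unmarked genes rest on few fragments.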

Additional observations from a re-analysis of the deposited data

How the results depend on the processing

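All values in this part are differences between Apc Min/+ and wild type on the log2(signal + 1) scale, or counts, with the number of called genes by limma. The count of 0 called developmental factors did not change with centring, quantile normalization, scaling to background, the window, the start with the highest signal, the filter, the pseudocount, the replicate block or leaving out WT1, WT2 or APC1, and was 18 of 24 without APC2, a range of 0 to 18. Over all promoters 0 were called in the main fit, 12 with centring, 2 with quantile normalization, 1 with the replicate block, and from 0 to 6479 when a library was left out. Chosen after seeing the data, centring combined with leaving out WT1, WT2, APC1 or APC2 called 2, 18, 0 and 30 promoters, and with the replicate block 15, none of them a developmental factor. The numbers pair the libraries in the labels only, and deviations of same-numbered libraries correlated at 0.196 over 9930 promoters. The share of the 121 genes whose groups do not overlap with Apc Min/+ higher, 18.2% in the main setting, against 26% of all promoters, was 0.826% with centring, against 5.96%, and from 34.7% to 38.0% when a library was left out, against 36.7% to 58.3%, where 3 libraries separate more easily. With centring, Apc Min/+ was lower without overlap at 40 of the 121 genes (33.1%), against 21.1%. Centring takes its shift from the tested promoters and applies it to every gene. Unmarked genes with a difference near 0 thus become negative by construction. The 121 genes hold a larger share of unmarked genes, so shares and medians with centring do not compare like with like. Without centring, Apc Min/+ was higher without overlap at 0% of the 7 genes with a mean of at least 5, against 32.0% of all such promoters. The median difference of these 7 genes was 0.73, against 0.89. The median difference over the 121 genes, 0.12, was -0.73 with centring (all promoters -0.50), -0.0251 with quantile normalization (-0.0119) and -0.00556 without APC2 (0.47), and positive otherwise, from 0.0358 with a pseudocount of 5 to 0.29 with one of 0.1, with 0.0436 for the window of 2000 bp. The log2 ratio of mean signal, 0.65, was -0.34 with centring, -0.14 with quantile normalization, and from 0.13 to 1.03 when a library was left out, lowest without APC1. Of 331 values for the 24 tested genes, 270 kept direction and side of the threshold, 18 came past it, without APC2, and 43 changed sign. With centring these were Foxc1 -0.80, Sox12 -0.64, Foxp3 -0.63, Foxo1 -0.61, Foxk2 -0.36, Foxn2 -0.30, Irx3 -0.25, Sox4 -0.21, Foxo3 -0.19, Foxd2 -0.17, Tbx3 -0.13, Tbx1 -0.11, Foxk1 -0.0915, Foxm1 -0.0786, Sox13 -0.0204 and Foxp4 -0.0195. With quantile normalization they were Foxo1 -0.61, Foxc1 -0.58, Sox12 -0.38, Foxp3 -0.33, Foxn2 -0.27, Sox4 -0.25, Foxk2 -0.24, Tbx3 -0.22, Foxo3 -0.22, Foxk1 -0.11, Foxm1 -0.0868, Foxp4 -0.0501, Foxd2 -0.0049 and Irx3 -0.0037. When a library was left out, the differences ran for Foxo1 from -0.57 to 1.06, for Foxc1 from -0.30 to 0.41, for Foxo3 from -0.29 to 1.61, for Sox4 from -0.28 to 1.56, for Tbx3 from -0.25 to 1.70, for Sox12 from -0.18 to 0.60, for Foxo6 from -0.0838 to 1.80, for Foxd2 from -0.0563 to 1.42, for Foxk1 from -0.0333 to 1.56, for Foxn2 from -0.0317 to 1.14, for Foxm1 from -0.0304 to 1.58. The sign changes came with APC1 left out, and at Foxo1 and Foxc1 also with WT2 left out. The cause was not tested. Depth limits the unmarked genes, whose values rest on a median of 2 to 10 fragments a library.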
